A study of Rattus norvegicus with 2 samples.

Results

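The inhibitor of DNA binding genes Id1, Id2 and Id3, the ligand gene Tgfb1 and the inhibitory SMAD genes Smad6 and Smad7 were followed in RBL-2H3 cells, a rat line derived from a basophilic leukaemia and used in place of mast cells. These 6 genes were taken by symbol from the 15409 gene symbols of the deposited transcript table. They were picked because Id1 had a far higher value in the treated library, so the values of all 6 are a description and carry no test. The treated library came from RBL-2H3 cells exposed to PM2.5, the fine particles of polluted air, along with IgE and DNP-HSA, the antigen that crosslinks IgE on its receptor. The control library came from RBL-2H3 cells given normal saline, and the labels do not state whether those cells also received IgE and DNP-HSA. The title of the treated sample reads PM100, but no dose unit or exposure time is given. Each group had 1 library, so no difference has a replicate check.

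TGF-beta and the related bone morphogenetic proteins (BMPs) bind pairs of type I and type II receptor kinases, which phosphorylate receptor SMADs that enter the nucleus with Smad4. Smad6 and Smad7 are induced by the pathway and block it, forming a feedback loop. Id genes are classical BMP targets that TGF-beta and many growth signals also regulate. Id proteins carry a helix-loop-helix domain without a DNA-binding region and hold E proteins such as Tcf3 away from DNA. In mast cells TGF-beta1 is both a secreted product and a regulator of growth and IgE receptor expression.

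The promoter windows of the 3 Id genes are shown because Id1 and Id3 differed in opposite directions between the libraries, with Id2 on the side of Id1. Whether the motifs have a part in this was not tested. They run from 250 bases before to 50 bases after the gene start in the RefSeq annotation of GRCr8, which may not be the build of the expression table. Capitals mark 2 motifs found on either strand, the SMAD box CAGAC, which reads GTCTG on the other strand, and the E-box CANNTG bound by E proteins. The Id1 window lies at chr3:161671314-161671613 on the + strand, the Id2 window at chr6:47470946-47471245 on the - strand, and the Id3 window at chr5:153656041-153656340 on the + strand.
Id1: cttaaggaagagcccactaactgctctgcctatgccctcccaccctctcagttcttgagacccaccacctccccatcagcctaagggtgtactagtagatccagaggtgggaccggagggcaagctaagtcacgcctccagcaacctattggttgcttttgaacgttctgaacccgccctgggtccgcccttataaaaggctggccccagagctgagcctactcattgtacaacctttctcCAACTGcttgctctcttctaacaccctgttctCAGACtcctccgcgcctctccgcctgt
Id2: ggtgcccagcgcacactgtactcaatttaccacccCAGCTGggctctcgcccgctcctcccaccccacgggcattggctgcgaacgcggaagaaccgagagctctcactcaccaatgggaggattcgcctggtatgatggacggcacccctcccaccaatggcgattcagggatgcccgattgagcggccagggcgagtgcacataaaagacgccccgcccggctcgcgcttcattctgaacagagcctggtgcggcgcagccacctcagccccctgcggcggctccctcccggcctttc
Id3: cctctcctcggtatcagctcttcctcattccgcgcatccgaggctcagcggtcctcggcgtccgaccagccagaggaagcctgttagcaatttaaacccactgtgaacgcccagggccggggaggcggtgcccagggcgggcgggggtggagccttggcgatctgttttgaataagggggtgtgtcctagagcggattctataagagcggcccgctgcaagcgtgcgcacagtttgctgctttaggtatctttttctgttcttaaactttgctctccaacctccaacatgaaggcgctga
The Id1 window held 1 SMAD box and 1 E-box, the Id2 window 1 E-box, and the Id3 window neither. The GC-rich SMAD site GGCGCC, which reads the same on both strands, was in none of the Id windows and occurred 2 times in that of Smad7. Among 33469 promoters of the same length, 50.1% held a SMAD box, 72.1% an E-box and 11.0% the GC-rich site. No window was listed for Smad6, and that of Tgfb1 held none of the 3 motifs. These matches are letters in a window and not sites of binding. Bases outside the windows were not searched, so a motif missing here may lie further from the gene.

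Values below are normalised counts, that is, reads divided by the library's size factor. A read was worth 1.65 in the treated library (3964955 reads) and 0.867 in the saline library (7279671 reads). Each log2 fold sets treated over saline after 1 was added to both normalised counts. The 95% intervals, by the exact Clopper-Pearson method, are for the ratio without the added 1 and cover counting error only. A gene was counted as higher or lower where its log2 fold reached 1 in that direction and its level reached a normalised count of 1 in either library. By this rule of size 12.1% of 15097 symbols were higher in the treated library and 19.1% were lower, and the median log2 fold was -0.07. Of 10 mast cell markers, 9 were measured and none was at 0, Kit having 5440 against 11946 reads. Their summed level, mostly that of Kit, Gata2 and Srgn, was 26027 with treatment and 27511 with saline. Their median log2 fold was 0.44, with Cpa3 higher at 1.74 and Hdc lower at -1.07. Of the T and B cell markers 0 of 6 were listed and of the epithelial ones 1 of 6, Krt8 with 12 against 11 reads. Fibroblast markers, 4 of 6 listed, summed to 306 with treatment and 226 with saline, with Dcn at 0 in the treated library and Pdgfra at 0 in the saline one. Macrophage markers, 4 of 6 listed, summed to 704 with treatment and 1471 with saline, a difference mostly of Csf1r at 472 and 1215. Cd14 was at a log2 fold of -0.03 and Adgre1 at -0.13, and Cd68 had 0 treated and 19 saline reads. The part of these markers in the results was not tested. In bulk RNA, fewer cells of a kind and less RNA per cell cannot be told apart.

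Id1 and Id3 differed in opposite directions, and Id2 differed less. Id1 (ENSRNOG00000021750), a BMP target linked to proliferation and delayed differentiation, had a normalised count of 315 in the treated library, from 191 reads, and 60.7 in the saline library, from 70 reads. This was 5.20-fold higher, a log2 fold of 2.36 (interval 1.98 to 2.79). Among all symbols counted, 332 had a larger log2 fold, and 18 of the 9041 whose mean normalised count reached 50 did. The authors' deposited table gives the Id1 transcript a p-value of 0.0623 and an adjusted p-value of 0.920, and 137 of its 20367 transcripts have a lower p-value.

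Id3 (ENSRNOG00000026124), which in mice limits lymphocyte differentiation by binding E proteins, had no read in the treated library and 39 reads in the saline library, a normalised count of 33.8. Set against a floor of 3 treated reads, Id3 was 6.83-fold lower, and the exact interval of its log2 ratio reached up to -2.40. Among 980 symbols with 30 to 50 saline reads, 4.29% had 0 treated reads and 20.5% were lower by the rule of size. The authors' deposited table lists a p-value of 0.299 for Id3. A count of 0 at this depth does not show that the gene was silent.

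Id2 (ENSRNOG00000007237), which in mice restrains E proteins during natural killer and innate lymphoid cell development, had a normalised count of 152 in the treated library (92 reads) and 93.7 in the saline library (108 reads). Its log2 fold of 0.69 lay inside the 2-fold limits, with an interval of 0.28 to 1.11. Id2 was the only one of the 6 genes with more than 1 transcript listed. Transcript ENSRNOT00000009491 held most of the reads, 83 with treatment and 105 with saline, and was at 0.58 (interval 0.16 to 1.02). The minor transcript ENSRNOT00000085925 had 9 against 3 reads and a log2 fold of 2.14 (interval 0.51 to 5.04). Both transcripts were thus on the higher side in the treated library. Id4, the remaining family member, was not among the listed symbols.

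**Figure D1:**
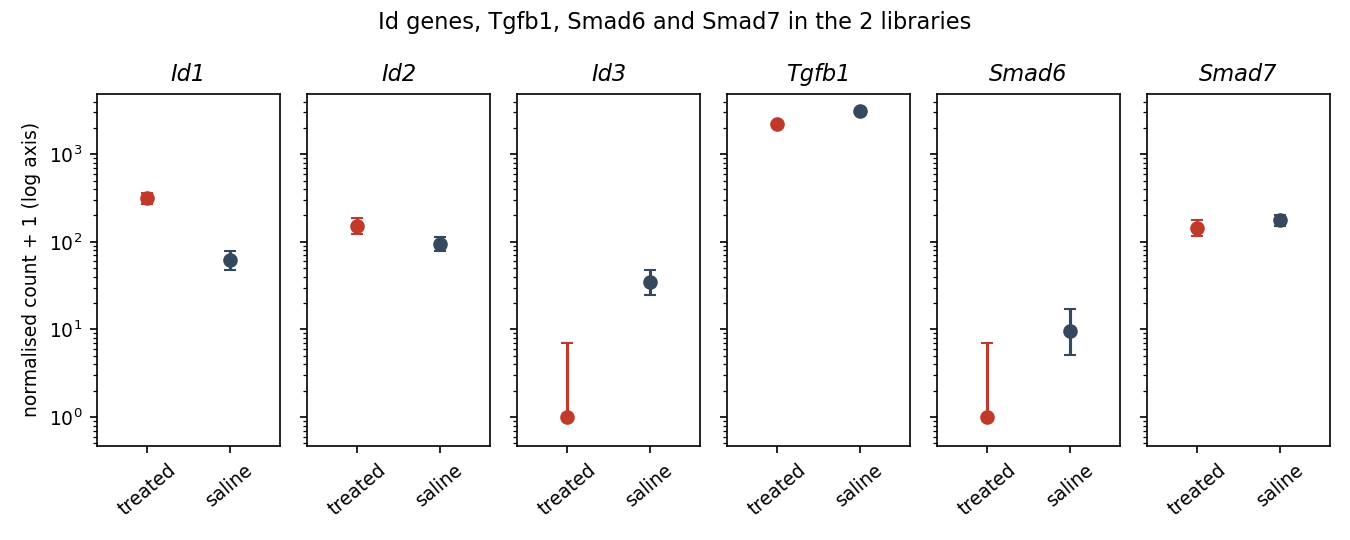
Normalised count plus 1 on a log axis for each of the 6 genes, with the treated library left of the saline library in each panel; points are single libraries and bars are exact 95% Poisson intervals of the reads. Id1 stands at 315 with treatment and 60.7 with saline, while Id3 and Smad6 have no treated read.

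The ligand and both inhibitory SMADs had log2 folds below 0, which for Tgfb1 exceeded the counting error and for Smad7 did not. Tgfb1 (ENSRNOG00000020652), the ligand, had a normalised count of 2192 with treatment (1327 reads) and 3135 with saline (3615 reads). Its log2 fold of -0.52 had an interval of -0.61 to -0.43, narrow because of the depth and inside the 2-fold limits. Smad7 (ENSRNOG00000018359), which recruits ubiquitin ligases to the type I receptor, had a normalised count of 144 in the treated library (87 reads) and 176 in the saline library (203 reads). At -0.29 its interval of -0.67 to 0.08 held 0, so no direction can be given for Smad7. Smad6 (ENSRNOG00000009173), which acts chiefly on BMP receptors, had no read in the treated library and 10 in the saline library. It was 1.75-fold lower against the floor of 3 treated reads, and the exact interval of its log2 ratio reached up to -0.24. Among 701 symbols with 8 to 12 saline reads, 30.8% had 0 treated reads, so the depth says little about Smad6. In the authors' deposited table the p-values were 0.233 for Tgfb1, 0.608 for Smad7 and 0.481 for Smad6. None of the transcripts of the 6 genes was among the 57 the authors selected, whose highest p-value is 0.0499.

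**Figure D2:**
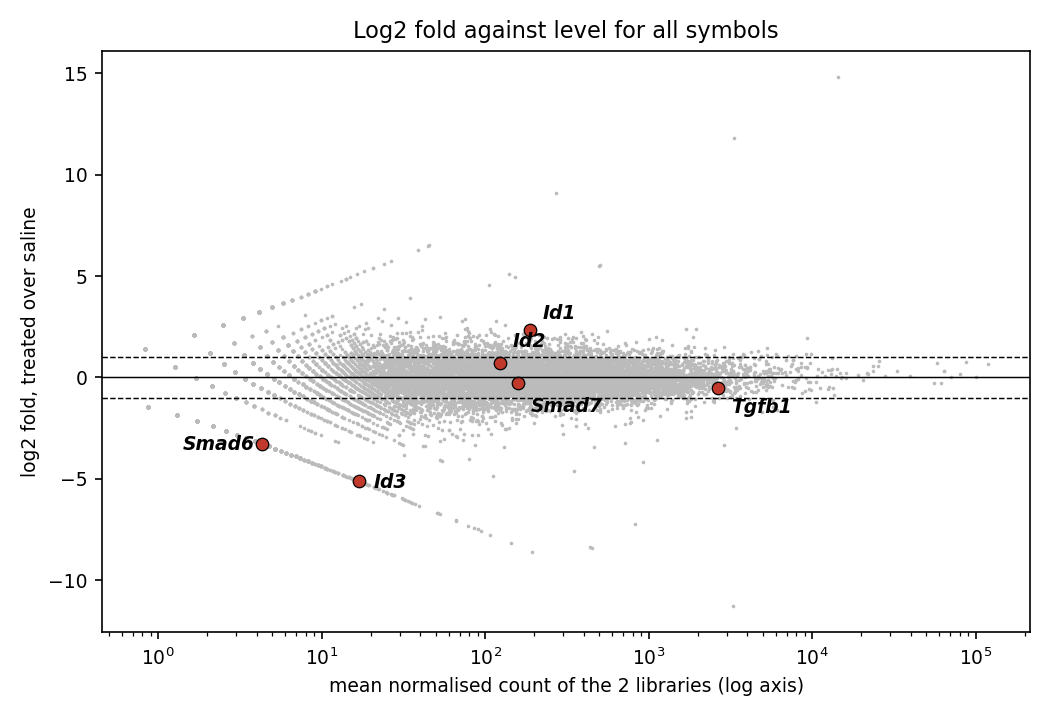
Log2 fold, treated over saline (y axis), against the mean normalised count of both libraries on a log axis (x axis), 1 grey point per symbol and the 6 genes in red; dashed lines mark log2 folds of 1 and -1. Id1 lies at 2.36 near the upper edge of symbols of its level, and Id3 and Smad6 lie on the lower edge formed by symbols with 0 treated reads.

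Genes near the 6 on their chromosomes were also compared, using the gene order of the GRCr8 RefSeq table. Of the 6 measured genes nearest to Id1, 3 on each side, 5 were below 0, from Trib3 at -1.69 to Tpx2 at 0.81. The nearest well-covered ones were Hm13 at -0.57 and Bcl2l1, an anti-apoptotic gene, at -0.01 with an interval that held 0. Cox4i2, also below 0, had only 0 against 2 reads. The neighbours of Id3 lay between -0.76 and 0.70, with Rpl11 at 0.70 (1826 against 2145 reads) and E2f2 at -0.47 (23 against 61 reads). Id1 and Id3 lay outside the range of their nearest genes. Id1 was picked for its high value and only 51 symbols had a smaller log2 fold than Id3. This comparison therefore does not set either gene apart from its region. Tgfb1 at -0.52 stood among neighbours that were all below 0, with a median of -0.58. The intervals of Tmem91 (0 against 4 reads), Axl (0 against 8 reads) and B9d2 (31 against 64 reads) held 0. Of the 6 neighbours of Smad6, 4 were above 0, among them Zwilch at 1.16 and Rpl4 at 1.05, and the median was 1.10. The other two, Iqch and Lctl, had 2 and 4 treated reads and 0 saline reads. Smad3, a receptor SMAD of the TGF-beta branch, was the neighbour with the lowest value, at -1.24.

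The symbols with a log2 fold nearest to that of Id1, among 4203 of a mean normalised count within 2-fold of it, included Kif20b at 2.39, Fam111a at 2.27, Depdc1 at 2.23 and Sec62 at 2.14. Likeness here rests on 2 libraries and is a difference in log2 fold of at most 0.22. Fam111a had 180 treated against 70 saline reads, close to the reads of Id1. For Id3, 4 symbols had the same 0 against 39 reads, and the next nearest was Nek8 with 0 against 40 reads. For Smad6, 39 symbols shared 0 against 10 reads, so that its likeness picks out no gene. The first of these by name are AABR07006475.1, Ajuba, Angpt4, Arhgef37 and B3gnt3.

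Other genes of the pathway were grouped by role into 8 lists of 104 genes, of which 67 were measured and 65 passed the minimum level. Of these 65, 6 (9.23%) were higher in the treated library and 16 (24.6%) lower, against the 12.1% and 19.1% of all symbols. Their median log2 fold was -0.22, or -0.14 once genes at 0 reads are set to the floor. Among those whose mean normalised count reached 10, 2 of 51 were higher and 10 lower, against 8.33% and 10.4% of all symbols so filtered.

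**Figure D3:**
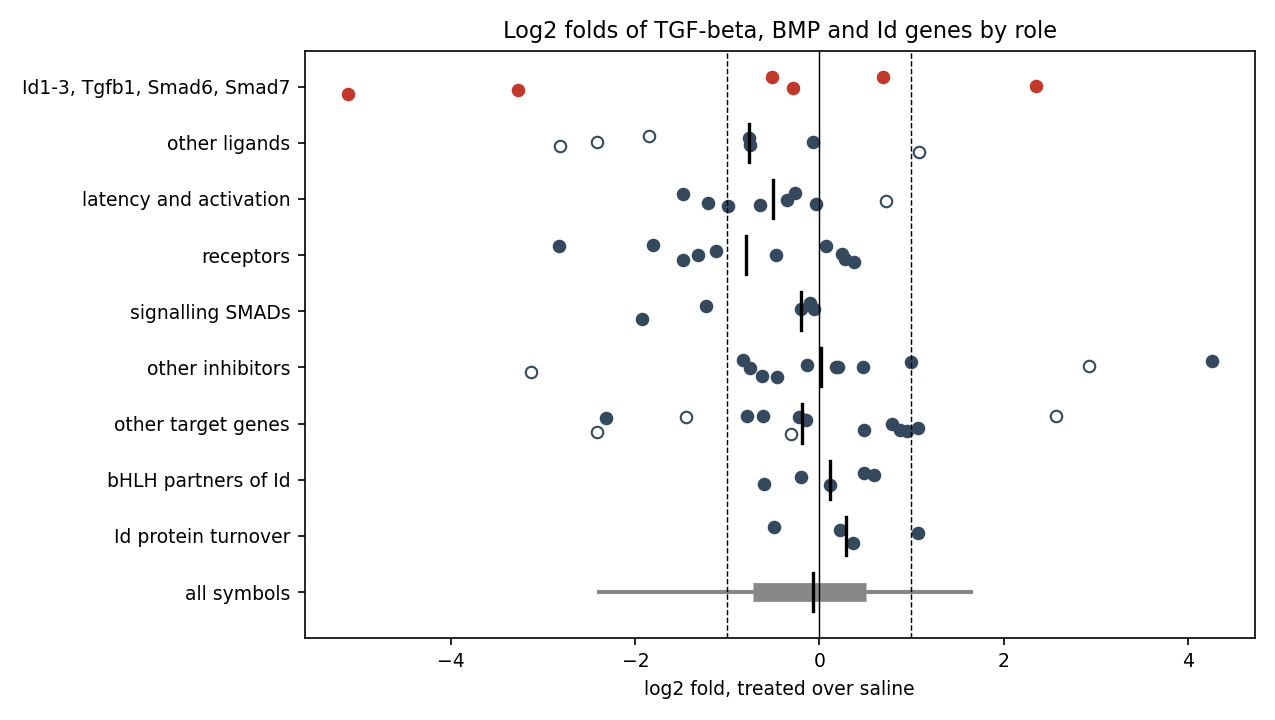
Log2 folds, treated over saline (x axis), for the 6 genes in red and each list of other pathway genes in dark blue; filled points have at least 10 reads over both libraries, open points fewer, and black bars are list medians. The grey bar gives the middle 50% of all symbols and the line runs from their 5th to their 95th percentile; the receptors have their median at -0.80 and no gene past 1.

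Among the lists, the receptors had the most genes past the 2-fold rule as lower. Of 10 measured receptors, 5 were lower and 0 higher, with a median of -0.80. For symbols with a mean normalised count from 10 to under 100, 18.5% were lower, and at higher levels, up to a mean under 1000, 6.25%. Tgfbr2, the type II receptor that binds TGF-beta, had 97 treated against 461 saline reads and a log2 fold of -1.31 (interval -1.65 to -1.001). Tgfbr1, its type I partner, was at 0.27 (interval 0.06 to 0.49, 292 against 460 reads). The intervals of these 2 genes did not overlap, but they cover counting error only and leave out spread between libraries.

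Among activin and BMP receptors, the type I genes Acvr1b, Acvr1 and Acvrl1 were lower. Acvr1b, an activin receptor, was at -2.83 (interval -4.92 to -1.57, 4 against 61 reads). Acvr1, a BMP receptor, was at -1.81 (interval -2.59 to -1.15, 20 against 136 reads). Acvrl1, which binds BMP9 in endothelium, was at -1.13 (interval -1.80 to -0.54, 28 against 118 reads). The type II gene Acvr2b was lower at -1.48 (interval -2.75 to -0.51, 9 against 50 reads), while its relative Acvr2a was at 0.24 (interval -0.17 to 0.65). The BMP receptors Bmpr1a and Bmpr2 were at 0.38 and 0.07, both with intervals that held 0.

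Of 5 signalling SMADs past the minimum level, 2 were lower and 0 higher, with a median of -0.20. Both lower ones had mean normalised counts from 10 to under 100, where 18.5% of symbols were lower. Smad1, which carries BMP signals, was at -1.93 (interval -4.50 to -0.42, 3 against 25 reads). Smad3 was at -1.24 (interval -2.73 to -0.11, 7 against 33 reads). The deeper Smad2 (-0.06), Smad4 (-0.20) and Smad5 (-0.10) had intervals that held 0. Smad5, which carries the same BMP signals as Smad1, had 150 against 307 reads.

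**Figure D4:**
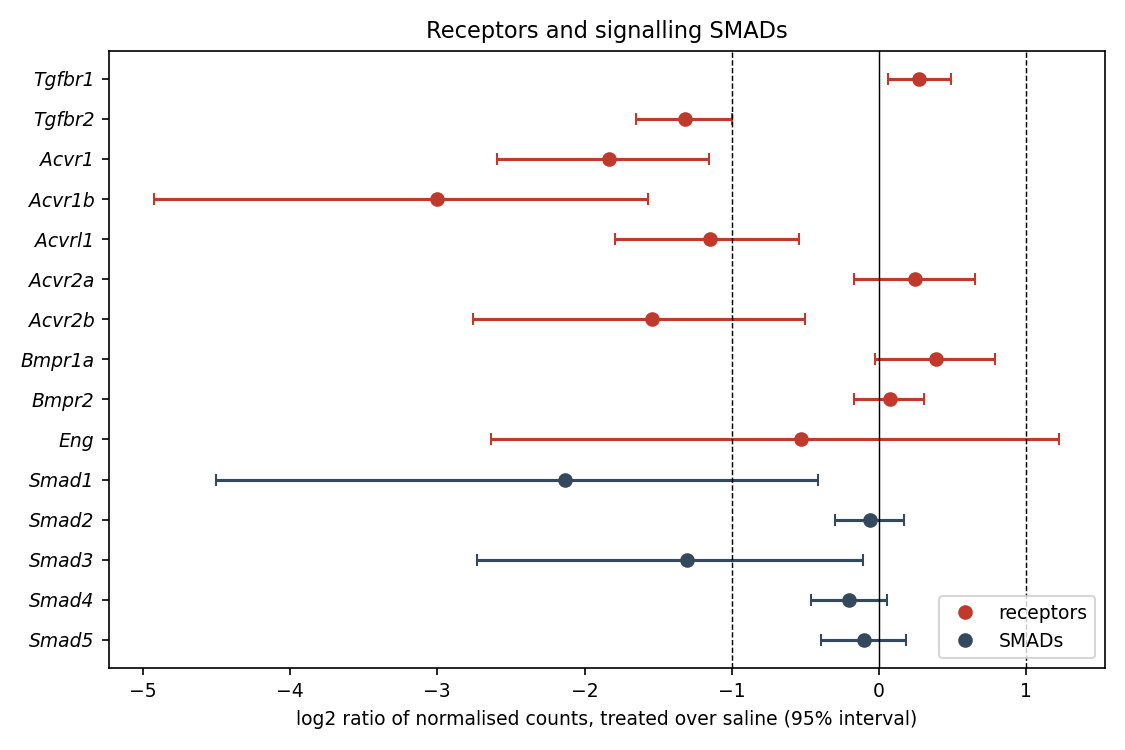
Log2 ratio of normalised counts, treated over saline, without the added 1 (x axis), for receptors in red and signalling SMADs in dark blue with at least 10 reads over both libraries; bars are exact 95% intervals and dashed lines mark 1 and -1. The intervals of Tgfbr2, Acvr1 and Acvr1b end below -1, and those of Tgfbr1 and Smad2 lie well inside the dashed lines.

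Other ligands were sparsely covered. Of 7 measured ligands, 1 (14.3%) was higher and 3 (42.9%) lower, against 12.1% and 19.1% of all symbols. All 4 had fewer than 10 reads in sum. The median of -0.76 became -0.07 once genes at 0 were set to the floor. The best covered were Gdf11, a relative of myostatin, at -0.76 (interval -1.24 to -0.32, 53 against 172 reads) and Bmp1, which is a procollagen protease despite its name, at -0.75 (interval -1.68 to 0.06). Among genes of TGF-beta latency and activation, 2 of 8 (25%) were lower and 0 higher, against 19.1% and 12.1% of all symbols. Their median was -0.50. The latent TGF-beta binding protein gene Ltbp3 was at -1.21 (6 against 28 reads) and the protease gene Mmp9 at -1.48 (3 against 18 reads), and both intervals held 0. Furin, which cleaves the TGF-beta precursor, was at -0.65 (interval -0.78 to -0.53), and Itgav, the alpha V integrin, at -0.04. Nrros, which tethers latent TGF-beta1 on myeloid cells, stood just outside the rule at -0.99 (interval -1.27 to -0.73, 150 against 570 reads).

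Inhibitors other than Smad6 and Smad7 had no common direction. Of 12 measured, 2 (16.7%) were higher and 1 (8.33%) lower, against 12.1% and 19.1% of all symbols, with a median of 0.02. Fstl1, a secreted follistatin-like protein, was read 11 times with treatment and 0 times with saline. Set against a floor of 3 saline reads it was 6.98-fold higher, and the exact interval of its log2 ratio began at 2.26. The other called ones had fewer than 10 reads. The ubiquitin ligase gene Wwp1 stood just outside the rule at 0.995 (interval 0.65 to 1.35, 144 against 137 reads). Those with the most reads were Strap, a receptor-associated inhibitor, at 0.47 and Ppm1a, a SMAD phosphatase, at 0.18.

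Among other target genes, 2 of 14 (14.3%) were higher and 3 (21.4%) lower, near the 12.1% and 19.1% of all symbols. Their median was -0.18, or 0 once genes at 0 are set to the floor. Cdkn2b, a cell cycle inhibitor induced by TGF-beta, was at -2.32 (interval -3.15 to -1.66, 18 against 176 reads). Fn1, the fibronectin gene, was at 1.07 with an interval that held 0 (-0.04 to 2.33, 15 against 13 reads). The well-covered Bhlhe40 and Cdkn1a were at -0.61 and -0.14.

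Genes of the bHLH proteins that Id factors bind were within 2-fold when summed over transcripts. Of 5 measured, 0 were higher and 0 lower, against 12.1% and 19.1% of all symbols, with a median of 0.11. Their single transcripts differed more, as given below. Tal1, a blood lineage factor that pairs with E proteins, was at -0.60 (interval -0.72 to -0.48, 765 against 2204 reads). Tcf12, an E protein gene, was at 0.48 (interval 0.30 to 0.67). Tcf4 was at 0.59 and Tcf3 at -0.20. Of 4 genes of Id protein turnover, 1 (25%) was higher and 0 lower, against 12.1% and 19.1% of all symbols. The higher one was Usp1, a deubiquitinase that stabilises Id proteins, at 1.07 (interval 0.80 to 1.35, 230 against 208 reads). Its cofactor gene Wdr48 was at 0.22, and Fzr1, an activator of the ubiquitin ligase that degrades Id proteins, was at -0.50.

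Sums over transcripts hid larger differences between transcripts of the same gene, a feature chosen for description after the values were seen. Of 12 pathway genes with at least 2 transcripts whose mean normalised count reached 10, 9 had transcript log2 folds at least 2 apart, and 42.2% of 1861 such symbols did. For Smad2, transcript ENSRNOT00000046847 had 0 treated against 205 saline reads, while ENSRNOT00000092173 had 226 against 245 and was at 0.81 (interval 0.55 to 1.08). For Klf10, a gene induced early by TGF-beta, ENSRNOT00000008350 was at 1.66 (interval 1.39 to 1.95) and ENSRNOT00000085626 at -1.41 (interval -1.85 to -1.01). The low value of Cdkn2b came from ENSRNOT00000008898, with 0 against 133 reads, whereas ENSRNOT00000092196 was at -0.32 with an interval that held 0. For Tal1, the minor ENSRNOT00000091977 had 73 against 19 reads and was at 2.80. Of the other bHLH partners, Tcf4 had a transcript at 2.32, ENSRNOT00000020431 with 47 against 17 reads, and Tcf3 one at -1.76, ENSRNOT00000085899 with 21 against 138 reads. Tcf12 had ENSRNOT00000084925 with 30 treated and 0 saline reads. The sources used here do not give how reads shared by transcripts were divided, and its part in these values was not tested.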

How the data were processed

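Total RNA was made into strand-specific libraries with a TruSeq kit, per the labels' protocols. Per the submitters' processing notes, Cuffnorm, DESeq 1.22.1, FastQC and STAR 2.5 were used, in roles that are not given; no build or counting setting is named. Each value that the authors deposited is a log2 normalised count plus 1 of a transcript. Undoing the log2 and the added 1 left whole multiples of 1 step per library for 100% of values, within 1e-06 reads, which gave the read counts. The authors' deposited p-values and log2 fold (saline over treated) were used only as listed; the sources used here do not say how they were obtained from 1 library per group. There are 6 further columns that repeat the same values; these were left out.

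Levels were added up over the transcripts of a symbol; 1276 without a symbol were left out, and 99 symbols join several gene identifiers. With 1 library per group no test was run. List genes were matched by symbol (67 of 104). The 6 genes, the lists and the rules were chosen with earlier results of these data known. The text names the 6 genes; list members past 2-fold with at least 10 reads in sum; the 2 of each list with the highest mean normalised count; and the 5 symbols nearest in log2 fold to each of the 6 past 2-fold. Some genes that this rule takes are left out here. Further genes named were chosen after their values were seen. Normalised counts are not corrected for transcript length, so their order is one of reads, not of levels per length, and levels of different genes were not compared. Reads are not independent molecules. Alternatives were 2 other pseudocounts, 3 scalings, 3 filters, the highest transcript alone and a thinned saline library.

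For this comparison the rule of size was tested on simulated data with 15409 symbols. Of 100 symbols changed by a log2 fold of 1.5, 98% passed the rule of size, as did 100% of 100 symbols changed by -3; all were drawn from a mean of at least 50. Id3 and Smad6 lie below that mean. The true ratio lay in 96.5% of intervals. The simulated reads held counting error only, as the intervals assume, so this share does not test spread between libraries. Scripts ran in Python 3.11.15 with SciPy 1.17.1, pandas 2.3.3, NumPy 2.4.6 and Matplotlib 3.10.9.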

Additional observations from a re-analysis of the deposited data

How the results depend on the processing

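The log2 folds of Id1, Id2, Tgfb1 and Smad7 stayed inside their counting intervals with 2 other pseudocounts and 3 scalings. The same held with a saline library thinned to the treated depth, which redraws the same reads. These settings shift counts of this size little, so staying inside the intervals says nothing about spread between libraries. Id2 also stayed inside its interval with the highest transcript alone. That setting cannot change Id1, Tgfb1 or Smad7, which have 1 transcript each. Both Id2 transcripts stayed inside their intervals with a pseudocount of 5 and with scaling by library totals. The intervals of Id3 and Smad6 have no lower end; with pseudocounts of 0.5 and 5 Id3 was at -6.10 and -2.96, and Smad6 at -4.20 and -1.45. Counts of genes past 2-fold depended on how low levels were treated. With a pseudocount of 5, 3 pathway genes were higher instead of 6, and over all symbols 1023 were higher and 1650 lower, against 1826 and 2876. With a mean level of at least 10, 2 pathway genes were higher and 10 lower instead of 16, and 964 symbols were higher and 1209 lower. With a mean level of at least 50, 1 pathway gene was higher and 4 lower, and 619 symbols were higher and 669 lower. In each case fewer genes of few reads could pass. Counts of single lists were recomputed too, and 21 of the values obtained differed from the first count by over 1.5 times while 123 did not. Those 123 include the values without a filter, a setting that cannot change a call. With 1 added, a log2 fold of 1 already needs a normalised count of 1. With the highest transcript alone, Klf10 and Thbs1 passed the rule of size as higher. No paired analysis was possible because each group has 1 library. Depth limits Id3 and Smad6 most, since their folds against 0 treated reads rest on 39 and 10 saline reads. No scaling moved the median of all symbols by more than 0.1.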
